A study of Mus musculus with 8 samples.

Results

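Tight junctions seal the space between neighbouring epithelial cells near their apical side. Claudins form their strands, and the claudins that a cell makes set which ions and how much water pass between cells: some form pores and others tighten the seal. Occludin, which crosses the membrane in the same strands, and ZO-1, a scaffold under the membrane, complete the core of the junction, and in the colon these proteins separate the luminal content from the tissue. The 10 genes described here encode the pore-forming claudins (*Cldn2*, *Cldn15* and *Cldn12*), the sealing claudins (*Cldn3*, *Cldn4*, *Cldn7*, *Cldn8* and *Cldn23*), occludin (*Ocln*) and ZO-1 (*Tjp1*). They were chosen by name from 29234 gene symbols, and all 10 were in the table and passed the filter on low counts, which 12729 symbols passed. RNA in bulk does not tell fewer cells of a type from less RNA per cell.

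The samples were organoids from colon crypts of wild-type C57BL/6N male mice, grown in Matrigel and passaged before use. In the FS_CTR group (4 libraries) they received microbe-free fecal supernatant of healthy mice, and in the FS_DSS group (4 libraries) that of mice given dextran sulfate sodium, a compound that injures the colon epithelium, both at 4 mg/mL. The labelled treatment time was 5 days. Fecal pellets were pooled, and no source used here says whether the 4 samples of a group came from separate cultures or animals, so a *p* value here speaks only of how these samples varied, and that variation could be technical. Organoids of this kind are an epithelial model without the stroma and immune cells of the colon.

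Library totals ran from 18968416 to 27035243 estimated counts. FS_CTR replicates 3 and 4 stood apart: 38.7% and 33.3% of their counts came from 13 mitochondrially encoded genes, against 2.83% to 6.99% in the other 6 libraries, and values without them are given beside the results they move. Of the 7 epithelial markers, *Krt8* (a keratin) had 6134 to 8293 CPM, the counts relative to library size with edgeR's TMM scaling, and *Cdh1* (E-cadherin) 1162 to 2185 CPM. *Epcam*, an epithelial adhesion molecule that binds claudin-7, was listed at only 4.95 to 29.1 CPM. The defining markers of fibroblasts (*Col1a1*, 0.292 to 0.823 CPM), endothelium (*Pecam1*, 0.361 to 1.32 CPM) and immune cells (*Ptprc*, 0.0986 to 0.823 CPM) were near 0. Not all immune markers were: *Csf1r* had 3.22 to 11.9 CPM and *Cd68* 2.53 to 4.88 CPM. *Cd3e*, *Cd79a* and *Lyz2* had at most 0.657 CPM.

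4 members lie on chromosome 5 of the mouse genome (GRCm39). *Cldn4* (chr5:134973973-134975788, minus strand) and *Cldn3* (chr5:135015068-135016326, plus strand) are single-exon genes 39.3 kb apart, and *Cldn15* and *Cldn12* lie farther off. ZO proteins bind the very end of most claudins through a PDZ domain, and in many claudins this end is a tyrosine followed by a valine. The last 30 coding bases before the stop codon, from the GENCODE annotation of GRCm39 and on the coding strand, are printed below with the last pair of codons in capitals.
Cldn2: ttcaactcatacagcctgactgggTATGTG
Cldn15: ttcggtaaatatggcaaaaacgcaTACGTG
Cldn12: atcgacattccagtagtctcacacAGCACT
Cldn3: ggcaccgcctacgaccgcaaggacTACGTC
Cldn4: gcccgctctgtccccgccagcaacTATGTG
Cldn7: cccaagtccaattcctccaaggaaTACGTG
Cldn8: ccgagcatatactccaaaagtcagTATGTG
Cldn23: caaaattcgctgccctgtgactccGACCTG

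All of these bases are exonic and coding. They lie at chrX:138710117-138710146 (*Cldn2*, plus strand), chr5:137003738-137003767 (*Cldn15*, plus), chr5:5557694-5557723 (*Cldn12*, minus), chr5:135015926-135015955 (*Cldn3*, plus), chr5:134974970-134974999 (*Cldn4*, minus), chr11:69858511-69858540 (*Cldn7*, plus), chr16:88359249-88359278 (*Cldn8*, minus) and chr8:36292599-36292628 (*Cldn23*, minus). Of the 8 claudins, 6 end in a tyrosine codon followed by a valine codon, while *Cldn12* and *Cldn23* do not. Both claudins that were lower at the study's thresholds (*Cldn15* and *Cldn8*, below) are among those 6, and so are *Cldn2*, *Cldn3*, *Cldn4* and *Cldn7*, which were not past them.

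Levels can be compared between genes only per length, so the mean CPM over the 8 libraries was divided by the length of the longest annotated transcript. The sealing claudins led: *Cldn4* had 994 CPM per kb, *Cldn3* 764 and *Cldn7* 502. Their ranges over the libraries overlapped in part, with 730 to 1413 for *Cldn4*, 554 to 1084 for *Cldn3* and 414 to 594 for *Cldn7*. The next group was far below, with *Cldn23* at 50.5, *Tjp1* at 36.6, *Ocln* at 27.4, *Cldn2* at 25.4 and *Cldn15* at 22.2 CPM per kb, and the ranges of neighbours in this order overlapped. *Cldn12* followed at 6.12 and *Cldn8* was last at 0.689 CPM per kb, neither overlapping the gene before it. With the mean length of a gene's transcripts in place of the longest, *Cldn7* moved to 773, *Cldn23* to 89.8 and *Cldn2* to 43.6 CPM per kb.

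FS_DSS and FS_CTR organoids were then compared gene by gene, which asks how the transcripts of the junction differ between the supernatants. At the thresholds of the study, an unadjusted *p* under 0.05 and a log2 fold change, Log2(FC), of at least 0.58 in size, 0 members were higher and 2 were lower, *Cldn8* and *Cldn15*. Of all genes tested, 2.56% were higher and 6.44% lower by that rule. At an unadjusted *p* under 0.05 alone, 3 members were higher (*Ocln*, *Cldn4* and *Tjp1*) and the same 2 lower, where all genes gave 10.6% and 13.4%. After Benjamini-Hochberg adjustment in edgeR's quasi-likelihood test 0 members passed 0.05, as did 0.0% of all genes in either direction. DESeq2 called 2 members higher (*Ocln* and *Cldn4*) and 2 lower (*Cldn8* and *Cldn15*) at an adjusted *p* of 0.05, beside 5.06% and 6.06% of all genes. The median Log2(FC) of the 10 members was 0.06, with 5 above and 5 below 0, and that of all genes was -0.02. Of all genes 47.5% were above 0. Without FS_CTR replicates 3 and 4, 7 members were above and 3 below 0, where the median of all genes was 0.003.

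**Figure D1:**
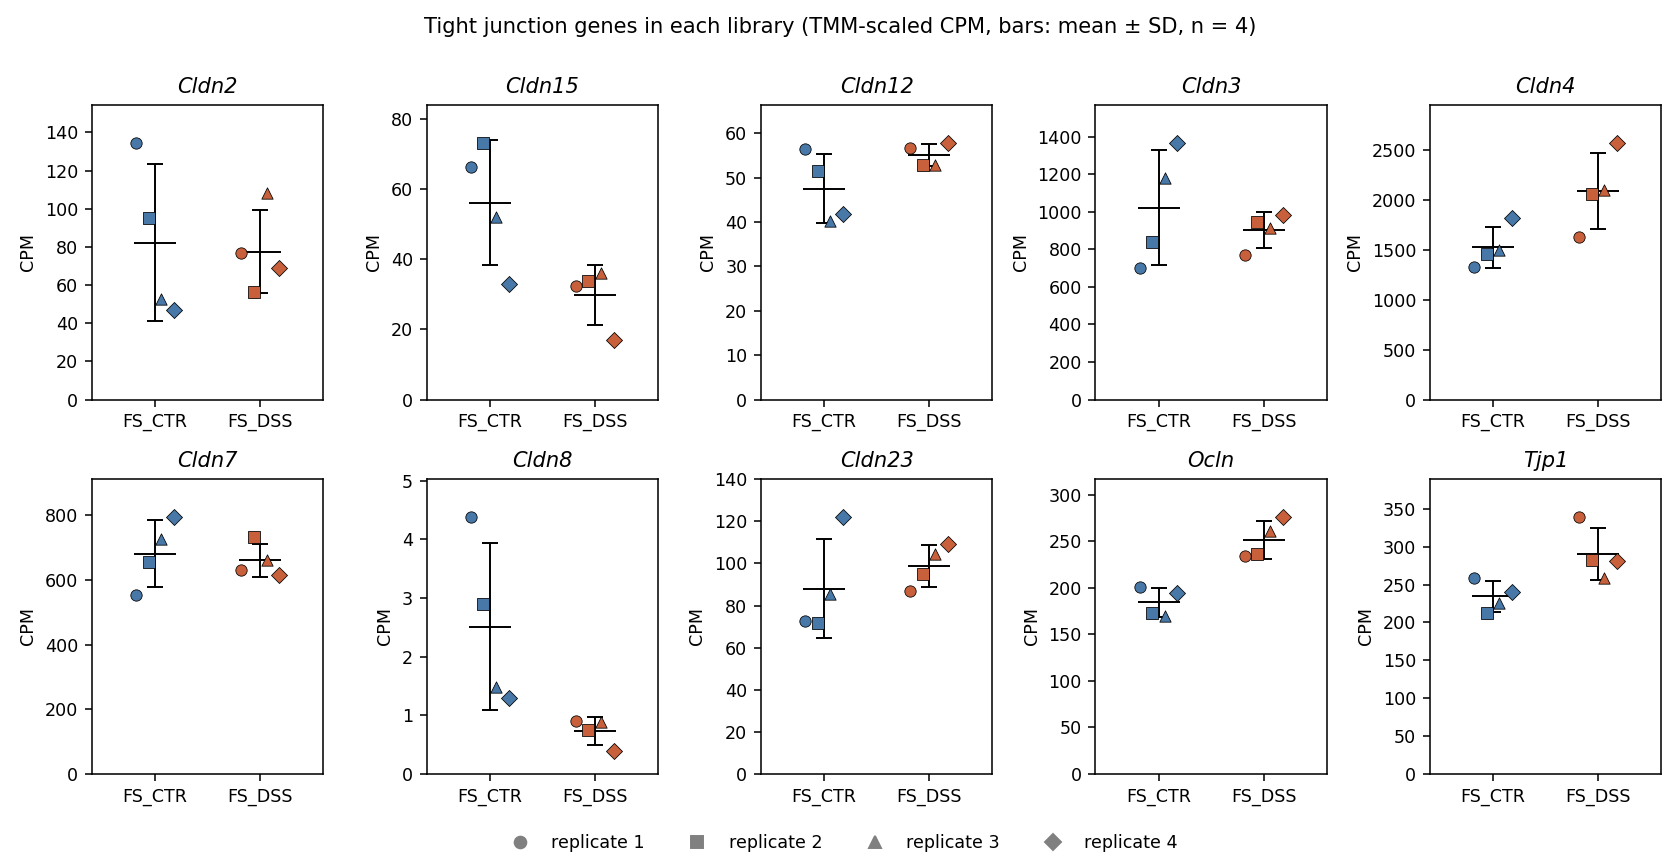
TMM-scaled CPM of each of the 10 genes (vertical axes, each starting at 0) in the 4 FS_CTR and 4 FS_DSS libraries, with 1 symbol per replicate number and bars for the mean ± SD. FS_DSS lies apart from FS_CTR for *Cldn8* (all 4 lower) and *Ocln* (all 4 higher), and the other 8 genes overlap.

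Among the pore-forming claudins, *Cldn15*, which forms cation pores in the intestine, was the one that was lower. It had 66.3, 73.0, 52.0 and 32.9 CPM in FS_CTR replicates 1 to 4 and 32.3, 33.7, 36.2 and 17.1 CPM in FS_DSS replicates 1 to 4. FS_CTR replicate 4 lay within the FS_DSS range and the other 3 lay above all FS_DSS libraries. In each same-numbered pair the FS_DSS library was the lower. The means were 56.1 ± 17.8 CPM (SD, n = 4) and 29.8 ± 8.62 CPM (SD, n = 4). The Log2(FC) was -0.91 (standard error 0.29, unadjusted *p* = 0.0114) in edgeR's quasi-likelihood test, and the Benjamini-Hochberg adjusted *p* was 0.117. With same-numbered libraries as a block, the adjusted *p* from edgeR was 0.0388, so 1 member passed as lower, where 1.52% of all genes did, and 0 as higher (0.605% of all genes). Without FS_CTR replicates 3 and 4 the Log2(FC) was -1.22.

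*Cldn2*, a pore for cations and water, had 134, 95.4, 52.6 and 46.8 CPM in the FS_CTR libraries and 76.8, 56.5, 108 and 69.0 CPM in the FS_DSS libraries. The FS_CTR libraries span the whole FS_DSS range, with replicates 1 and 2 high and 3 and 4 low. *Cldn2* was higher in 2 and lower in 2 of the 4 same-numbered pairs. Its Log2(FC) was -0.09 (standard error 0.34, adjusted *p* = 0.891 in edgeR's quasi-likelihood test with Benjamini-Hochberg adjustment), and it was -0.57 (standard error 0.25) without FS_CTR replicates 3 and 4. It turned to 0.25 without FS_CTR replicate 1 and to 0.094 with library totals alone as the scaling, a scaling that moved the median of all genes from -0.02 to 0.31. *Cldn12*, linked to the passage of calcium between cells, had 40.2 to 56.5 CPM in FS_CTR and 52.9 to 57.7 CPM in FS_DSS. Its Log2(FC) of 0.21 (standard error 0.12) was 0.03 without FS_CTR replicates 3 and 4, which were the lowest FS_CTR libraries at 40.2 and 41.8 CPM.

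*Cldn8*, a sealing claudin of the distal colon and of kidney tubules, had the largest Log2(FC) in size of the 10 genes and the lowest level. Its counts were 138, 88, 18 and 20 in the FS_CTR libraries and 27, 23, 27 and 12 in the FS_DSS libraries. Scaled, these were 4.38, 2.89, 1.48 and 1.30 CPM against 0.906, 0.755, 0.877 and 0.388 CPM. In these TMM-scaled values all 4 FS_DSS libraries were below all 4 FS_CTR libraries, which holds downwards for 7.58% of all genes. The separation rests on the scaling factors, 0.6405 and 0.6777 for FS_CTR replicates 3 and 4 and 1.127 to 1.183 for the other libraries. Against library totals alone the groups overlap. FS_CTR replicate 4 had 20 of 22686464 counts and FS_DSS replicate 1 had 27 of 26363942. With library totals alone the Log2(FC) was -1.63. The means were 2.51 ± 1.43 CPM in FS_CTR and 0.731 ± 0.238 CPM in FS_DSS (SD, n = 4 each), and FS_CTR replicates 1 and 2 were the farthest from FS_DSS. The Log2(FC) was -1.80 (standard error 0.45, adjusted *p* = 0.0886 in edgeR's quasi-likelihood test with Benjamini-Hochberg adjustment). An exact two-sided permutation test of log2 CPM over the 8 libraries gave *p* = 0.0286, the smallest that the 70 regroupings allow. These regroupings set the pairs aside, and exchanging conditions within the 4 same-numbered pairs gave an exact *p* of 0.125, the smallest of 16 exchanges. Groups without overlap always give both of these values, so the exact tests add nothing to the lack of overlap. Without FS_CTR replicates 3 and 4 the Log2(FC) was -2.31, and with each library left out in turn it ran from -2.01 to -1.39. DESeq2 gave an adjusted *p* of 0.00536, and edgeR with the block 0.0537.

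*Cldn4*, a sealing claudin of surface epithelium, had 1326, 1459, 1496 and 1812 CPM in the FS_CTR libraries and 1630, 2054, 2092 and 2565 CPM in the FS_DSS libraries. FS_DSS replicate 1 lay under FS_CTR replicate 4, and the other 3 FS_DSS libraries lay above all FS_CTR libraries. Each FS_DSS library was above the FS_CTR library of the same number. The Log2(FC) was 0.45 (standard error 0.16, unadjusted *p* = 0.0206) in edgeR's quasi-likelihood test, which is short of the fold threshold, with a Benjamini-Hochberg adjusted *p* of 0.145. Without FS_CTR replicates 3 and 4 it was 0.58 and past both thresholds, so that 1 member was then higher (2.88% of all genes) and 2 were lower (5.34%). The unadjusted *p* from edgeR became 0.0508 without FS_CTR replicate 1, 0.0511 without FS_CTR replicate 2 and 0.0629 without FS_DSS replicate 4. With DESeq2 the adjusted *p* was 0.0474.

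*Cldn3* and *Cldn7*, both sealing claudins and the next in level, did not pass the test in either direction. *Cldn3* had 698, 839, 1179 and 1365 CPM in FS_CTR and 767, 945, 914 and 985 CPM in FS_DSS. FS_CTR replicates 3 and 4 were above every other library, and FS_CTR replicate 1 was the lowest of all. The Log2(FC) of -0.18 (standard error 0.21, adjusted *p* = 0.614 in edgeR's quasi-likelihood test with Benjamini-Hochberg adjustment) turned to 0.23 without these replicates and to 0.25 with library totals alone. *Cldn7*, a claudin also found along the lateral membrane in the intestine, had 552, 655, 726 and 793 CPM in FS_CTR and 630, 733, 661 and 616 CPM in FS_DSS. The groups overlap throughout, and the standard error of its Log2(FC) of -0.05 was 0.13. *Cldn23*, a claudin of surface colonocytes, had 71.6 to 122 CPM in FS_CTR and 87.0 to 109 CPM in FS_DSS. Its Log2(FC) was 0.17 (standard error 0.17) over all libraries and 0.46 (standard error 0.11, adjusted *p* = 0.138 in edgeR's quasi-likelihood test with Benjamini-Hochberg adjustment) without FS_CTR replicates 3 and 4.

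*Ocln* was the member with the smallest unadjusted *p*. It had 201, 173, 169 and 194 CPM in the FS_CTR libraries and 234, 236, 261 and 276 CPM in the FS_DSS libraries. All 4 FS_DSS libraries were above all 4 FS_CTR libraries, which holds upwards for 7.41% of all genes. The means were 184 ± 15.6 CPM and 252 ± 20.3 CPM (SD, n = 4 each). The Log2(FC) was 0.45 (standard error 0.098, adjusted *p* = 0.0800 in edgeR's quasi-likelihood test with Benjamini-Hochberg adjustment), short of the fold threshold. It was 0.43 without FS_CTR replicates 3 and 4, and ran from 0.40 to 0.49 with each library left out in turn. An exact two-sided permutation test over the 8 libraries gave *p* = 0.0286, again the smallest of 70 regroupings, and within pairs 0.125, the smallest of 16 exchanges. Here too both values follow from the lack of overlap. DESeq2 gave an adjusted *p* of 0.00133. Without FS_CTR replicate 1, edgeR's adjusted test called 1 member higher, *Ocln* (3.88% of all genes), and 0 lower (5.33%).

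*Tjp1* had 259.1, 212, 225 and 240 CPM in FS_CTR and 339, 283, 258.9 and 281 CPM in FS_DSS. The lowest FS_DSS library and the highest FS_CTR library were level, and the other 3 FS_DSS libraries lay above all of FS_CTR. The Log2(FC) was 0.31 (standard error 0.11, unadjusted *p* = 0.0201) in edgeR's quasi-likelihood test, and the Benjamini-Hochberg adjusted *p* was 0.144. The unadjusted *p* became 0.0563 without FS_CTR replicate 2 and 0.0674 without FS_CTR replicates 3 and 4, where the Log2(FC) was 0.30. *Ocln* and *Tjp1* varied least among the FS_CTR libraries, with coefficients of variation of 8.46% and 8.57%. *Cldn8* and *Cldn2* varied most, at 57.0% and 49.7%.

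**Figure D2:**
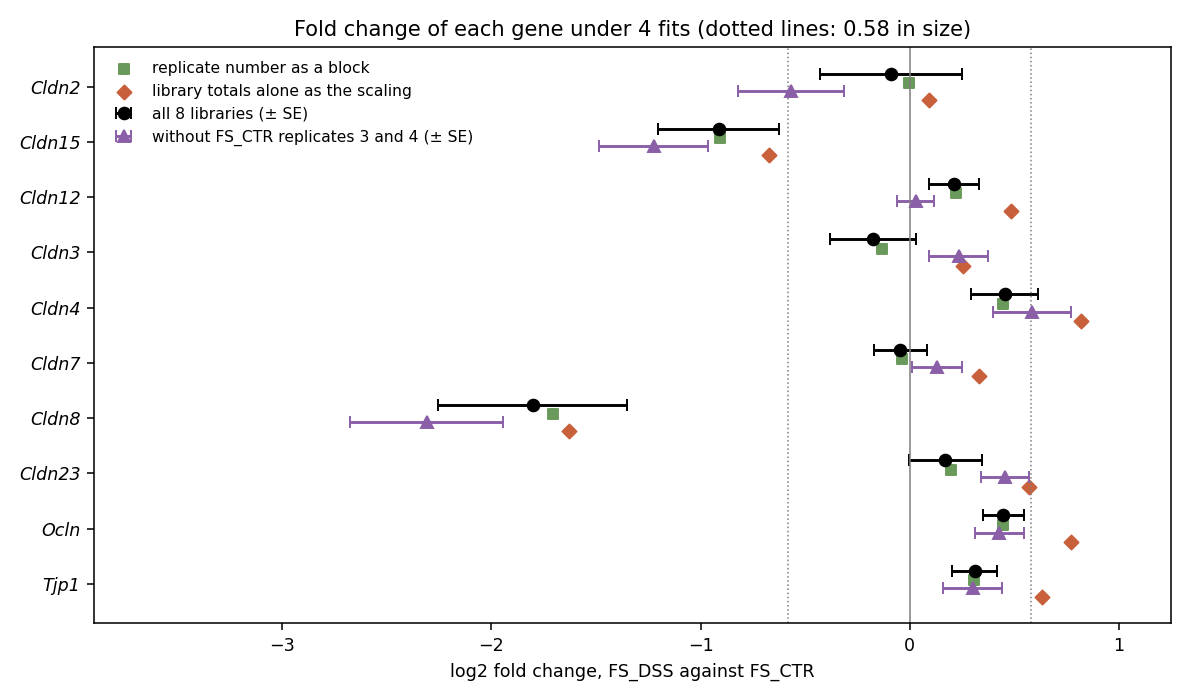
Log2(FC) of FS_DSS against FS_CTR for the 10 genes (horizontal axis), from all 8 libraries and without FS_CTR replicates 3 and 4 (each ± standard error), with same-numbered libraries as a block, and scaled by library totals alone. *Cldn15* and *Cldn8* stay left of 0 and *Cldn4*, *Ocln*, *Tjp1*, *Cldn12* and *Cldn23* right of 0 in all 4 fits, while *Cldn2*, *Cldn3* and *Cldn7* cross it.

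How the claudins shared their counts does not depend on the scaling of the libraries, and is given as a description. The 8 claudins held 98.6% to 99.0% of all counts that went to claudin symbols. *Cldn4* took 45.6%, 44.9%, 41.2% and 43.0% of the counts of the 8 in FS_CTR and 49.7%, 51.7%, 52.7% and 58.0% in FS_DSS. Every FS_DSS share was above every FS_CTR share. *Cldn3* took 24.0% to 32.5% in FS_CTR and 22.3% to 23.8% in FS_DSS. FS_CTR replicate 1, at 24.0%, was just above the highest FS_DSS library, and the difference of means of -5.54 percentage points was -1.79 without FS_CTR replicates 3 and 4. *Cldn15* took 2.28%, 2.25%, 1.43% and 0.780% in FS_CTR and 0.983%, 0.849%, 0.911% and 0.387% in FS_DSS. The FS_CTR replicate 4 share lay within the FS_DSS range. There were 20.0, 20.0, 28.7 and 55.1 counts of *Cldn4* for each of *Cldn15* in FS_CTR, against 50.5, 60.9, 57.9 and 149.9 in FS_DSS. *Cldn4* per *Cldn3* was 1.27 to 1.90 in FS_CTR and 2.13 to 2.61 in FS_DSS.

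**Figure D3:**
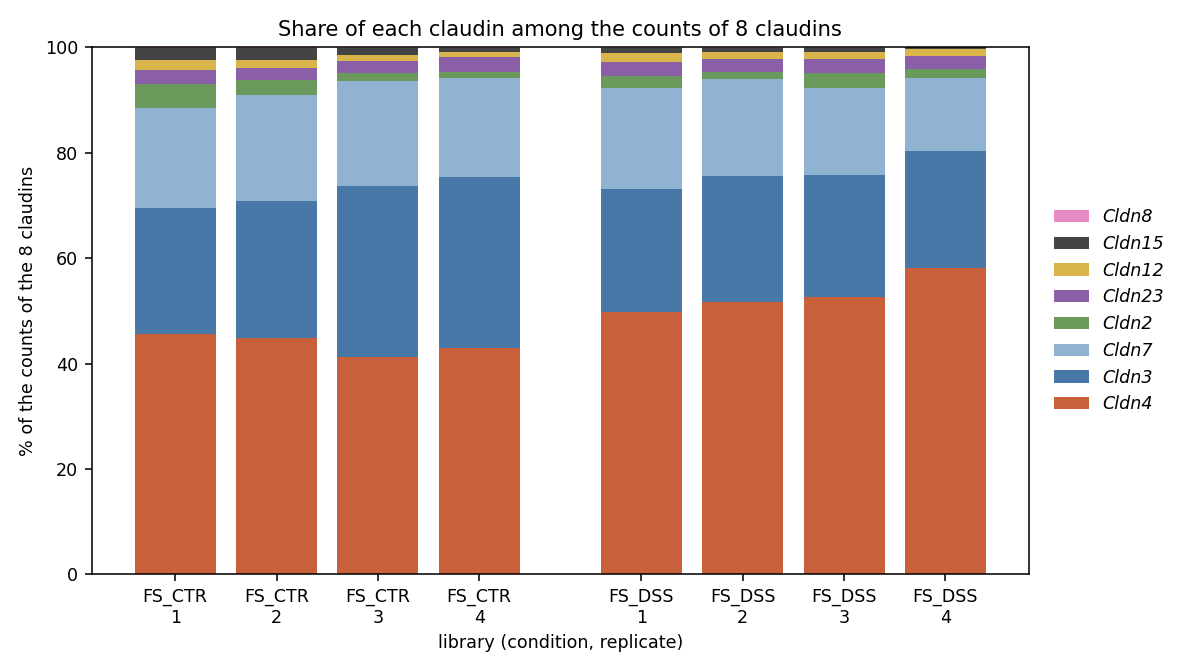
Share of each of the 8 claudins in their summed counts (vertical axis, %) in each library (horizontal axis). *Cldn4* covers 41.2% to 45.6% in FS_CTR and 49.7% to 58.0% in FS_DSS, and *Cldn8* is too small to see.

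The genes nearest in profile over the 8 libraries were found from the root mean square difference of log2 CPM after centring each gene, over 11779 genes with at least 1 CPM on average. For *Ocln* they were *Sema3c*, *Efnb2* and *Csnk1g1*, with differences of 0.0520 to 0.0554, where *Ocln* itself varied by 0.246 about its mean. For *Cldn8* they were *Rasd1*, *Fzd2* and *Mmp7*, with differences of 0.231 to 0.262 against 0.977. *Cldn2* was nearest to *Lrrc31*, *Prkar2b* and *Il1r1*, and *Cldn7* to *2210016F16Rik*, *Ptp4a2* and *Triobp*.

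The rest of the junction was read from a list of 53 other tight junction genes in the table, 40 of which passed the filter. Their median Log2(FC) was 0.14, with 24 positive and 16 negative, beside -0.02 over all genes, of which 47.5% were positive. Without FS_CTR replicates 3 and 4, 41 genes of the list passed the filter, 31 of them positive and 10 negative. Their median was then 0.20, beside 0.003 over all genes. At the thresholds of the study 2 were higher and 2 lower, and at an unadjusted *p* under 0.05 alone 14 were higher and 4 lower, beside the 10.6% and 13.4% of all genes. In TMM-scaled CPM, FS_DSS lay wholly above FS_CTR for 12 of the 40 and wholly below for 1, beside 7.41% and 7.58% of all genes. The trend of Log2(FC) with transcript length, given below for the 10 members, was not taken off for this list. With library totals alone as the scaling, 15 were higher and 0 lower at the study's thresholds, as were 1273 and 148 of all 12729 genes.

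The 2 higher genes were *Jam2*, an adhesion molecule of the JAM family, and *Amotl2*, an angiomotin family scaffold. *Jam2* had 9.14, 8.64, 4.94 and 4.17 CPM in FS_CTR and 13.8, 16.0, 15.1 and 16.9 CPM in FS_DSS, with no overlap. Its Log2(FC) was 1.18 (standard error 0.25, adjusted *p* = 0.0800 in edgeR's quasi-likelihood test with Benjamini-Hochberg adjustment), and 0.80 without FS_CTR replicates 3 and 4. *Amotl2* had 50.2 to 58.0 CPM in FS_CTR and 64.5 to 121 CPM in FS_DSS, a Log2(FC) of 0.70. The 2 lower genes were *Wnk4*, a kinase that acts on ion transport and on claudins, and *Rab13*, a small GTPase of junction traffic. *Wnk4* had 39.8, 38.8, 41.8 and 32.7 CPM in FS_CTR and 26.6, 21.6, 21.5 and 17.8 CPM in FS_DSS. These TMM-scaled values had no overlap, but against library totals alone the groups overlap. Its Log2(FC) was -0.81 (standard error 0.14, adjusted *p* = 0.0800 in edgeR, 0.0377 with the block), and -0.49 with library totals alone. *Rab13* had 10.5, 11.6, 27.1 and 27.3 CPM in FS_CTR and 9.55 to 11.3 CPM in FS_DSS. Only FS_CTR replicates 3 and 4 were high, and without them its Log2(FC) went from -0.85 to -0.07.

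By role, all 3 JAM family genes that passed the filter were higher at an unadjusted *p* under 0.05, as were 3 of 4 tricellular genes, which close the corners where cells meet, and 4 of 6 polarity genes, where 10.6% of all genes were. Of the 14 regulators 3 were higher and 3 lower, where 13.4% of all genes were lower. Of the 4 other claudins that passed the filter 0 were called. Among genes short of the fold threshold, those with small unadjusted *p* values upwards included *Arhgef18* (Log2(FC) 0.37), *Marveld2*, which encodes tricellulin (0.35), and *Cxadr*, a virus receptor of the JAM family (0.38). Downwards they belonged to *Tjp3*, the scaffold ZO-3 (-0.29), and *Ybx3*, a ZO-1 partner (-0.31), which turned to 0.066 and 0.051 with library totals alone. Under the block, 1 gene of the list was higher at an adjusted *p* of 0.05 (*Amotl1*, 0.0458, named after its value was seen) and 1 lower (*Wnk4*). Of all genes, 0.605% were higher and 1.52% lower by that rule.

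**Figure D4:**
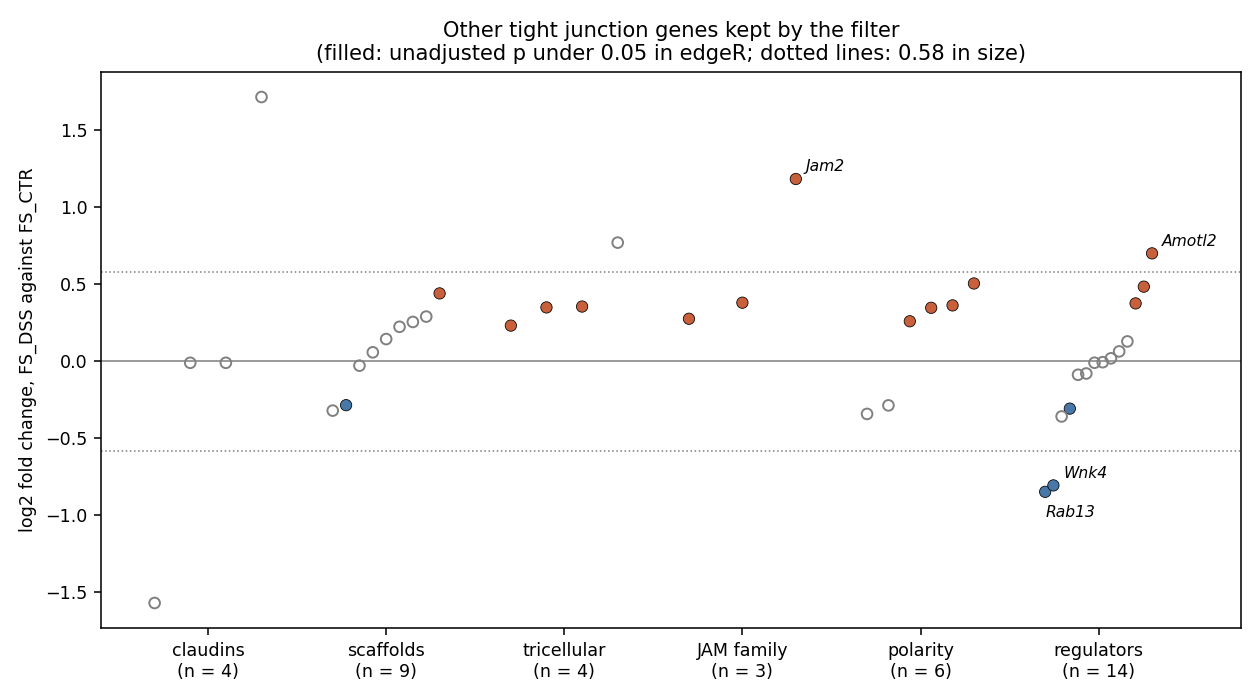
Log2(FC) of FS_DSS against FS_CTR (vertical axis) for the 40 other tight junction genes that passed the filter, by role (horizontal axis). Filled points have an unadjusted *p* under 0.05 in edgeR, and of these *Jam2*, *Amotl2*, *Wnk4* and *Rab13* are past the dotted lines at 0.58 in size.

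The other claudins added little. The most abundant symbol, *Cldn25*, had 40.2 CPM on average with a Log2(FC) of -0.01, but the name is also an older symbol of another gene. *Cldn1*, a sealing claudin of skin, had 0.476, 0.526, 6.26 and 4.30 CPM in FS_CTR and 0.201, 0.493, 1.56 and 1.49 CPM in FS_DSS. In both groups replicates 3 and 4 were the higher. *Cldn6* averaged 1.11 CPM, and 4 other claudin symbols were at 0 counts in every library.

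Some markers of several cell types were past the study's thresholds as well, where 2.56% of all genes were higher and 6.44% lower. Of the stem cell markers, 3 of 7 were lower at the study's thresholds, *Lgr5* (Log2(FC) -1.36), *Ascl2* (-0.99) and *Smoc2* (-2.57), and the summed list had 292 to 668 CPM in FS_CTR and 345 to 523 CPM in FS_DSS. Of the Paneth cell and small intestine markers, 5 of 7 were lower, among them *Lyz1* (-3.55), *Mmp7* (-1.78) and *Apoa4* (-2.49, and -0.44 without FS_CTR replicates 3 and 4), and their sum was 267 to 443 CPM in FS_CTR and 121 to 234 CPM in FS_DSS. In the mature colonocyte list 1 of 8 was lower (*Slc26a3*, -0.83), with a sum of 1575 to 2816 CPM in FS_CTR and 1443 to 1970 CPM in FS_DSS. In the tuft cell list 1 of 4 was lower (*Trpm5*, -1.10), with 10.97 to 14.6 CPM against 9.03 to 11.9 CPM. Of the 5 endothelial markers only *Pecam1* passed the filter, at -0.86 and past the thresholds, but at -0.49 and not past them without FS_CTR replicates 3 and 4, and the summed list had 1.08 to 2.22 CPM against 0.722 to 1.21 CPM. Of the goblet cell markers 0 of 7 passed the thresholds, and 2 were lower without FS_CTR replicates 3 and 4, as were 5.34% of all genes. In the distal colon list 4 of 5 passed the filter, all 4 with a negative Log2(FC) (median -0.29) and 0 past the thresholds, and the sum was 3317 to 5388 CPM against 2367 to 4508 CPM. The 5 enteroendocrine markers were all positive (median 0.50) with 0 past the thresholds, and 2 of 5 were positive without FS_CTR replicates 3 and 4. *Cdh1* had a Log2(FC) of 0.51 (unadjusted *p* = 0.00976 in edgeR), and 0.29 without these replicates. It was the only 1 of the 7 epithelial markers that was higher by an unadjusted *p* under 0.05 in edgeR. By the same rule 1 was lower, *Cdx2*, with a Log2(FC) of -0.285, and -0.186 without FS_CTR replicates 3 and 4. The median Log2(FC) of the 7 was 0.02, and 0 were past the study's thresholds. The part of the markers of all these lists in the levels of *Cldn8*, *Cldn15* or the genes that were higher was not tested. Transcript length moved too: the median Log2(FC) over 10 equal classes of length was -0.31 in the class with the shortest transcripts and 0.16 in that with the longest. *Cldn4*, *Cldn3*, *Cldn7* and *Cldn23* are in the shortest class, and *Ocln* and *Cldn12* in the longest. Less the median of its class, the Log2(FC) was 0.76 for *Cldn4*, 0.28 for *Ocln*, 0.19 for *Tjp1*, -0.73 for *Cldn15* and -1.62 for *Cldn8*. It was 0.48 for *Cldn23* and 0.05 for *Cldn12*, and it turned positive for *Cldn3* (0.13), *Cldn7* (0.26) and *Cldn2* (0.03).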

How the data were processed

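RNA of 4 FS_CTR and 4 FS_DSS organoid samples was sequenced in stranded, paired-end libraries. Estimated counts for each gene symbol were deposited: the authors ran Salmon 1.10.1 on the mouse GRCm39 transcriptome and summed transcripts with tximport. Their DESeq2 1.36.0 normalization is not in the deposited counts. The sources used here do not give the transcriptome release or the strand setting. The counts were whole numbers (0 values were not), with 18968416 to 27035243 per library, and columns of no mapped sample numbered 0. Groups and replicate numbers came from the sample labels.

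The test was edgeR 4.0.16's quasi-likelihood F test (R 4.3.3), with a term for condition alone, TMM scaling, robust estimation, the filterByExpr filter (12729 of 29234 symbols kept) and Benjamini-Hochberg adjustment over the symbols kept. Robust estimation was set after the counts of genes called with and without it had been seen. Standard errors are the size of the Log2(FC) over the square root of F, and are approximate. A prior count of 2 was used for log2 CPM. Levels per length and gene positions used the GENCODE annotation of GRCm39, to which 25118 symbols matched directly and 1262 by an older symbol, and 97.2% of the kept genes had a length. The genes described, the lists and the alternatives were chosen with earlier results of these data known. Named genes were the 10 members, in the list of other tight junction genes those past the study's thresholds and up to 4 more per direction by smallest *p*, the 3 most abundant other claudins, per marker list the defining gene and up to 4 past the thresholds, and the 3 nearest profiles of 4 members. A result that this rule selects is not reported here.

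The alternatives were other scalings and filters, DESeq2 1.42.0, limma-voom (limma 3.58.1), the replicate number as a block, exact permutation, no fold threshold and each library left out. Leaving out FS_CTR replicates 3 and 4 together rests on how they stood apart in the data, and the fit without robust estimation, the canonical transcript length, the exact test within pairs, and shares and lists without FS_CTR replicates 3 and 4 were added after seeing the data. Both groups carry replicate numbers 1 to 4. Same-numbered libraries deviated together from their group means, with correlations of 0.352, 0.221, 0.154 and 0.226, all over 0.1, and the numbers were therefore treated as pairs, although FS_CTR replicate 3 correlated more, at 0.188, with FS_DSS replicate 4. No source says what the numbers stand for. The comparison was tested on simulated data with known changes. Those data had a capped spread between replicates, no pairs and no FS_CTR replicates that stood apart. They therefore do not show how the test behaves on these libraries. Python 3.11.15, pandas 2.3.3 and matplotlib 3.10.9 served for tables and plots.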

Additional observations from a re-analysis of the deposited data

Results flagged for a closer look

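A library was looked at again when its value lay far from the other 3 of its group by Dixon's gap criterion for 4 samples, a flag that chance gives in about 1 in 20 groups. Of 108 groups of 4 libraries, 7 were picked out, and none of the CPM of the 10 genes described was among them. The share of *Cldn12* in the claudin counts was 1.72% in FS_DSS replicate 1 and 1.31% to 1.33% in the other 3 FS_DSS libraries. *Epcam* had 4.95 CPM in FS_CTR replicate 4 and 28.1 to 29.1 CPM in the other FS_CTR libraries. *Ascl2* had 1.55 CPM in FS_DSS replicate 4, against 4.09 to 4.47 CPM in the others of its group. *Muc2*, the main mucin of goblet cells, had 840.9 CPM in FS_DSS replicate 3 and 338 to 391 CPM in the other FS_DSS libraries. In FS_DSS replicate 1, *Apoa4* had 2.68 CPM against 0.743 to 0.845, *Ptprc* 0.570 CPM against 0.131 to 0.162, and *Defa17* 0.0335 CPM where the other 3 had 0.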

How the results depend on the processing

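At the study's thresholds, library totals alone as the scaling gave 3 members higher and 1 lower, beside 1273 and 148 of all 12729 genes. Leaving out FS_CTR replicates 3 and 4 gave 1 higher (2.88% of all genes), and no fold threshold gave 3 higher (10.6%). At an adjusted *p* of 0.05, DESeq2 gave 2 members higher and 2 lower, beside 5.06% and 6.06% of all genes. The replicate block gave 1 lower (*Cldn15*), beside 1.52% of all genes, and changed no other member's call. With each library left out in turn, 0 to 1 members were higher at that threshold, the 1 being *Ocln* without FS_CTR replicate 1. For the other tight junction genes, library totals gave 15 higher and 0 lower, beside the same 1273 and 148 of all genes. The fit without FS_CTR replicates 3 and 4 gave 1 lower, beside 5.34% of all genes. No filter on low counts gave 4 lower and limma-voom 1 lower. With each library left out, 1 to 5 were higher (5 without FS_DSS replicate 1, 1 without FS_DSS replicate 4) and 1 to 2 lower (1 without FS_CTR replicate 3 or 4, or FS_DSS replicate 1 or 3). The shares of all genes in the no-filter, limma-voom and left-out fits are not given, so those counts only describe the list.

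The sign turned for 3 members, and the cause was not tested. *Cldn2* had a Log2(FC) of 0.094 with library totals and a difference of 0.0091 in the log2 CPM of the exact permutation test, and ran from -0.29 to 0.25 with each library left out. *Cldn3* had 0.25 with library totals and 0.23 without FS_CTR replicates 3 and 4. *Cldn7* had 0.33 and 0.13 in these fits and ran from -0.13 to 0.036 with each library left out. With library totals *Cldn15* was still past the fold threshold (-0.67) but not the *p* threshold (unadjusted *p* = 0.121 in edgeR). Its exact permutation *p* was 0.0857. The exact permutation test over the 8 libraries gave *p* = 0.0571 for *Cldn4* and for *Tjp1*. With the mean transcript length, levels became 773 CPM per kb for *Cldn7*, 89.8 for *Cldn23*, 53.3 for *Tjp1*, 35.6 for *Ocln*, 43.6 for *Cldn2* and 11.3 for *Cldn12*, and *Cldn12* had 10.2 with the canonical transcript. Less the median of the class of length, *Cldn2* became 0.03, *Cldn3* 0.13 and *Cldn7* 0.26. Of 200 values of the members under an alternative, 188 had the sign of the main value and 12 the other. With 12 to 138 counts a library, *Cldn8* was the member most limited by depth.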
